A study of Mus musculus with 9 samples.

Results

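The TNF receptor superfamily on B cells was followed through 9 genes and every probe set annotated to them. The genes were Fas, Tnfrsf1a, Tnfrsf1b, Cd40, Cd27, Tnfrsf14, Tnfrsf13c, Tnfrsf13b and Tnfrsf17. They were chosen by name as family members known on B cells, with earlier results of these data known. They had 12 of the 45101 probe sets of the Affymetrix Mouse 430.2 array, and 5 of the 9 genes were bright enough to be among the 10331 genes tested. The cells were germinal center (GC) B cells, the dividing B cells of an immune response in which antibody genes are mutated and selected, sorted as B220-, PNA- and CD95-high cells. KO mice were FOXO1f/f, with both alleles of the transcription factor gene Foxo1 floxed, HET mice were FOXO1f/+, with 1 floxed allele, and WT mice were FOXO1+/+, with 0. All of them carried Cg1-Cre, a recombinase placed under the control of the IgG1 constant region, so deletion takes place in B cells that have been activated, and all were 10 weeks old and had been injected with sheep red blood cells on days 0 and 5 before the spleens were taken on day 12. Each genotype had 3 arrays and, per the sample labels, each array held RNA of a single animal, although the design text of the series mentions pools.

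Receptors of this family bind trimeric ligands of the TNF family and signal through adaptor proteins, above all the TRAF proteins, into the NF-kB and MAP kinase pathways, while those with a cytoplasmic death domain can also start apoptosis through FADD and caspase-8. In GC B cells, CD40 receives the T cell help that keeps selected cells alive, and CD95, the product of Fas, can remove cells. BAFF-R (Tnfrsf13c), TACI (Tnfrsf13b) and BCMA (Tnfrsf17) read the ligands BAFF and APRIL: BAFF-R supports the survival of mature B cells, TACI is prominent on marginal zone B cells and in T-independent responses, and BCMA is needed by long-lived plasma cells.

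The promoter of each of the 3 receptor genes that passed the test in KO against WT is shown so that the letters upstream of the genes can be read beside their changes. RefSeq (GRCm38.p6) gave a promoter, 250 bases before to 50 after the start of the gene, for 8 of the 9 genes. A forkhead motif was searched as GTAAACA or GTAAATA on both strands, and these words cannot overlap on the same strand, while GTAAATA on opposite strands can share 2 bases. It was found in 1 of the 8 promoters, that of Tnfrsf13b, as TATTTAC from base -83 to base -77 relative to the start, and in 6.54% of all 32851 promoters of this length. The capitals below mark that match, and the other 2 sequences hold none. A match is a run of letters and was not tested as a binding site.
Tnfrsf13b, chr11:61126505-61126804, + strand: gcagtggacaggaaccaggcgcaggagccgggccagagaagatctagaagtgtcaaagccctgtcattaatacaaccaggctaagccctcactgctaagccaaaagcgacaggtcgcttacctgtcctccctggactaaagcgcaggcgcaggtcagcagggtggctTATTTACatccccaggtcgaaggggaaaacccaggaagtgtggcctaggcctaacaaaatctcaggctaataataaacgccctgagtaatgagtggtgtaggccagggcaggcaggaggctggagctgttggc
Fas, chr19:34290409-34290708, + strand: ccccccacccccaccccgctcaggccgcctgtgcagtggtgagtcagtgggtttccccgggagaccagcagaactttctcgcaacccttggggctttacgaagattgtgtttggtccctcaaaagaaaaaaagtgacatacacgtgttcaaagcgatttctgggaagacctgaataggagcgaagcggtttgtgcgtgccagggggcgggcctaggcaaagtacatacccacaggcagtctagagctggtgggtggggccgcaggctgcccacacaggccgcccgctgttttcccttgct
Tnfrsf1b, chr4:145246821-145247120, - strand: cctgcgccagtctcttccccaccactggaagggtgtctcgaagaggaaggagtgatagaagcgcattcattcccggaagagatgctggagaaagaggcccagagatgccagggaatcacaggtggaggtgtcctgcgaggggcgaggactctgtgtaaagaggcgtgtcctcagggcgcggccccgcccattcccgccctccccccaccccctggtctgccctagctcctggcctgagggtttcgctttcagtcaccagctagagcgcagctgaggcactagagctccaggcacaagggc

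All 8 GC B cell markers with a probe set of a single symbol, among them Bcl6, S1pr2, Mki67 and Cd79a, lay above the array median on all 9 arrays. All 6 plasma cell and all 5 marginal zone B cell markers did too, so this criterion does not tell these cell types apart. Of the 8 GC B cell markers, 1, Gcsam, fell in KO. Foxo1 was the check of the genotypes, with 983, 1392 and 727 in KO, 3633, 3581 and 3479 in HET and 5432, 5299.9 and 5616 in WT (MAS5 signal, the linear brightness that the authors deposited), and its log2 change in KO against WT was -2.45 (limma, adjusted p = 2.31e-06). Whether that probe set lies within the floxed segment was not analysed here. No array held the same values as another. The median signal lay between 42.9 and 48.0 on every array. On the log2 scale, the array median over all probe sets was 0.12 higher in KO than in WT, whereas the median change over the genes tested was 0.01. A limma model over all 9 arrays compared log2(signal + 2.09), where 2.09 is the 10th percentile of all signals, and a gene was called at an adjusted p under 0.05. Log2 changes are on this scale, which understates the change of dim genes. The p-values set each difference against the spread between arrays of the same genotype, which limma shares in part over all genes. In sorted cells in bulk, fewer cells of a type and less RNA per cell cannot be told apart.

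Of the 5 receptor genes tested, 3 rose in KO against WT (Tnfrsf13b, Fas and Tnfrsf1b), 0 fell and 2 did not pass (Tnfrsf13c and Cd40). Over all genes tested, 6.10% were called higher, 5.83% lower and 11.9% in either direction. The receptors were chosen with earlier results of these data known, so the shares do not compare them with a blind list. At an unadjusted p under 0.05 it was 4 of the 5, beside 25.7% of all genes. The median change of the 5 was 0.30 on the log2 scale, beside 0.01 over all genes. In KO against HET the same 3 genes rose, where 4.56% of all genes were called higher, 4.43% lower and 8.99% in either direction, and the median was 0.25, beside 0.01. Between HET and WT limma called 0 of the 5, with 1 of them, Tnfrsf13b, at an unadjusted p under 0.05; over all genes 0.00968% were called and 4.18% had such a p. HET lay below the midpoint of KO and WT for all 5 (median -0.11, beside -0.0024 over all genes). Limma called 0 of these departures, where 0.997% of all genes were called, 0.639% above the midpoint and 0.358% below it. At an unadjusted p under 0.05 there were 2, Tnfrsf13b and Tnfrsf1b. That count was 0 with each array centred on its median, and without WT replicate 3, KO replicate 1 or HET replicate 2. The shares of all genes below the midpoint, or with such a p, were not computed. The comparisons share arrays (KO in 2 of them, WT in 2), so their values are not independent. With each array centred on its median, which takes about 0.12 off each KO against WT change, the count of called receptors was 1 of 5 in KO against WT and 1 of 5 in KO against HET, Tnfrsf13b each time.

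**Figure D1:**
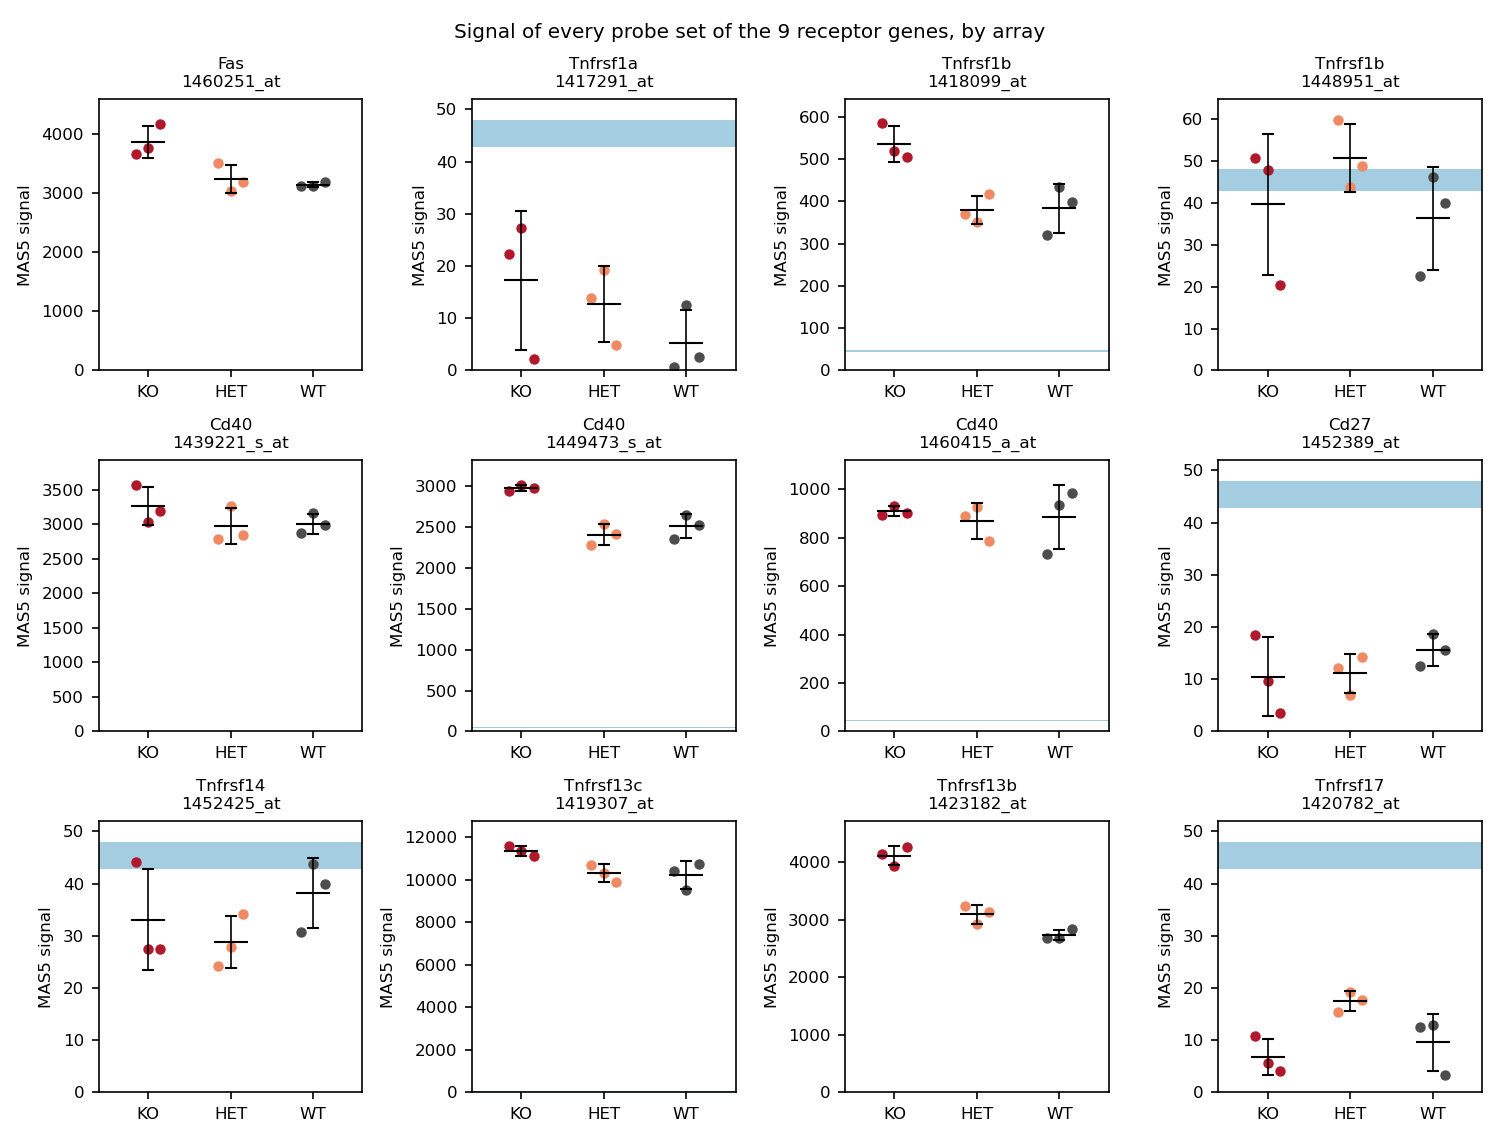
MAS5 signal (vertical axis, linear, from 0) of the 12 probe sets of the 9 receptor genes; points are arrays, the bar is the mean and the whisker the SD of 3 arrays, with KO, HET and WT from left to right, and the blue band spans the array medians (42.9 to 48.0). The 3 KO points of Tnfrsf13b, Fas, Tnfrsf13c, the brighter Tnfrsf1b probe set and Cd40 probe set 1449473_s_at stand above all HET and WT points. Tnfrsf1a, Cd27 and Tnfrsf17 stay under the band.

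Tnfrsf13b, which encodes TACI, a receptor for both BAFF and APRIL, had the largest change of the 5 in KO against WT, and in KO against HET the change of Tnfrsf1b was larger. Its signal was 4145, 3941 and 4269.5 in KO, 3233, 2922 and 3131 in HET, and 2682, 2691 and 2841 in WT. The 3 genotypes did not overlap: every KO array lay above every HET array, and every HET array above every WT array. It averaged 4118 ± 166 in KO, 3095 ± 159 in HET and 2738 ± 89.6 in WT (SD, n = 3), so the KO mean was 150.4% and the HET mean 113% of WT. Tnfrsf13b rose by 0.59 in KO against WT (SE 0.06, 95% interval 0.46 to 0.72, adjusted p = 4.55e-05) and by 0.41 in KO against HET (SE 0.06, interval 0.28 to 0.54, adjusted p = 8.82e-04). The HET against WT change of 0.18 (interval 0.05 to 0.31) did not pass (adjusted p = 0.998), and 4.95% of all genes were higher in HET with no overlap. HET lay 0.12 below the midpoint of KO and WT, which did not pass either (adjusted p = 0.432). In KO against WT and in KO against HET, Tnfrsf13b was called under all 21 alternative settings, with changes of 0.47 to 0.62 and of 0.32 to 0.45.

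Some markers of other B-lineage cells changed on the same arrays. All 5 marginal zone B cell markers rose in KO against WT, where 6.10% of all genes were called higher and 5.83% lower. Their summed signal was 11678 to 13931 in KO, 7438 to 8166 in HET and 7467 to 7505 in WT. Of 6 plasma cell markers 4 rose (Slpi, Irf4, Prdm1 and Sdc1), with sums of 25402 to 27796 in KO, 20997 to 22479 in HET and 20319 to 21652 in WT. Xbp1 (-0.05, adjusted p = 0.758) and Jchain (-0.06, adjusted p = 0.504) did not pass. Slpi alone read 8000 to 9411 in KO, 4522 to 5314 in HET and 3422 to 4418 in WT. Of the follicular B cell markers 2 of 5 were tested: Fcer2a fell and Klf2 did not pass (0.11, adjusted p = 0.764). The part of these cells in the rise of Tnfrsf13b, and in the changes of the other receptors, was not tested.

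Tnfrsf13c encodes BAFF-R, which binds BAFF alone. It gave 11587, 11334 and 11121 in KO, 10721, 10318 and 9906 in HET, and 10438, 9507 and 10765 in WT. The KO arrays lay above all others, as did 16.2% of all genes in KO against WT and 14.5% in KO against HET, while HET and WT overlapped. The change of 0.15 in KO against WT (SE 0.05, interval 0.04 to 0.26) did not pass (adjusted p = 0.083), nor did that of 0.14 in KO against HET (adjusted p = 0.127). It was called in both comparisons under quantile normalization (0.18, adjusted p = 0.0171, and 0.17, adjusted p = 0.0295), and in KO against WT without WT replicate 3 (0.19, adjusted p = 0.036). With arrays centred on their median the KO against WT change was 0.03 (adjusted p = 0.761).

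Tnfrsf17, the BCMA gene, did not reach the median of any of the 9 arrays and was not tested. Its signals were 10.7, 5.62 and 4.06 in KO, 15.4, 19.2 and 17.7 in HET, and 12.6, 12.96 and 3.27 in WT. The 3 HET arrays read highest, all of them still under the array median, and with no filter the KO against WT comparison gave an adjusted p of 0.847. Of the ligand genes of these receptors, Tnfsf13b (BAFF) was tested, Tnfsf13 (APRIL) was not, and Tnfsf13b did not pass (-0.20, interval -0.99 to 0.59, adjusted p = 0.79), with 5 of 9 arrays below the array median.

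Fas encodes CD95, the death receptor that also served as a sorting marker, so its transcript was measured only in cells inside a CD95-high gate. The signals were 3662, 3752 and 4162 in KO, 3498, 3031 and 3186 in HET, and 3118, 3108 and 3191 in WT. All KO arrays lay above all HET and WT arrays, and HET and WT overlapped. Fas averaged 3859 ± 267 in KO, 3238 ± 238 in HET and 3139 ± 45.5 in WT (SD, n = 3). Fas rose by 0.30 in KO against WT (SE 0.07, interval 0.15 to 0.44, adjusted p = 0.0131) and by 0.25 in KO against HET (interval 0.11 to 0.40, adjusted p = 0.0351), and the HET against WT change was 0.04 (interval -0.10 to 0.19, adjusted p = 0.998). The KO against WT call was lost with arrays centred on their median (0.18, adjusted p = 0.102) and without WT replicate 2 (0.29, adjusted p = 0.0509). The KO against HET call was lost in 9 of 21 settings, 5 of them fits that left out 1 array (WT replicate 2, KO replicates 2 and 3, HET replicates 2 and 3), with adjusted p up to 0.165.

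Tnfrsf1b encodes TNFR2, a receptor for TNF and lymphotoxin without a death domain, known on T cells, myeloid cells and activated lymphocytes. Its brighter probe set, 1418099_at, read 585, 518 and 504 in KO, 371, 351 and 417 in HET, and 319.9, 434 and 397 in WT. Here too the KO arrays did not overlap the others, and HET and WT lay in the same range. The mean was 536 ± 43.1 in KO, 379.8 ± 33.9 in HET and 384 ± 58.2 in WT (SD, n = 3). Tnfrsf1b rose by 0.49 in KO against WT (SE 0.13, interval 0.21 to 0.77, adjusted p = 0.0283) and by 0.49 in KO against HET (SE 0.13, adjusted p = 0.0327), while HET against WT gave -0.01 (interval -0.29 to 0.27, adjusted p = 0.998). The KO against WT call was lost in 7 of 21 settings, among them quantile normalization (0.43, adjusted p = 0.0615), median centring (0.37, adjusted p = 0.0708) and the fits that left out WT replicate 1, WT replicate 3, KO replicate 1 and KO replicate 2 (adjusted p = 0.106, 0.0613, 0.0981 and 0.0566). In KO against HET it was lost in 9 of 21, among them the fits without KO replicate 1 or 2 or HET replicate 1 or 2 (adjusted p = 0.105, 0.0686, 0.0852 and 0.115).

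A second Tnfrsf1b probe set, 1448951_at, lay near the array median. It read 50.8, 47.7 and 20.4 in KO, 59.7, 43.9 and 48.8 in HET, and 22.6, 46.3 and 40.0 in WT, so that the genotypes overlapped throughout. In a fit with every probe set as a row of its own its KO against WT change was 0.08 (interval -0.74 to 0.89, adjusted p = 0.935), an interval that includes the change of the brighter probe set. Its KO against HET change was -0.43 (interval -1.25 to 0.38, adjusted p = 0.562). The mean of both probe sets gave 0.28 in KO against WT (adjusted p = 0.463) and 0.03 in KO against HET (adjusted p = 0.952).

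Markers of other cells known to carry TNFR2 were looked at on the same arrays. Of 8 myeloid markers 6 were tested and 3 rose in KO against WT (Cd68, Lyz2 and Csf1r), where 6.10% of all genes were called higher. Adgre1 (0.34, adjusted p = 0.614), S100a8 (0.36, adjusted p = 0.865) and S100a9 (-1.08, adjusted p = 0.673) did not pass. In KO against HET 1 of the list rose and 0 fell. The sums over the list were 1075 to 1375 in KO, 638 to 1412 in HET and 492 to 966 in WT. Itgam and Cd14 did not reach the array median on any array. The highest HET sum was that of replicate 3, whose Csf1r signal was 489. Of 7 T cell markers with a probe set 3 were tested and 0 rose or fell, Cd3d, Cd3g and Cd4 were below the median on all arrays, and the sums were 135 to 241 in KO, 191 to 374 in HET and 207 to 272 in WT. The part of myeloid cells in the Tnfrsf1b result was not tested.

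Tnfrsf1a, which encodes TNFR1, the TNF receptor with a death domain, was under the array median throughout. Its signals were 22.3, 27.3 and 2.12 in KO, 13.9, 19.3 and 4.86 in HET, and 0.716, 12.4 and 2.54 in WT, a spread as wide within as between genotypes.

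Cd40, the receptor for T cell help, was read by 3 probe sets, of which 1 passed the test. The brightest, 1439221_s_at, stood for the gene and read 3571, 3032 and 3188 in KO, 2793, 3271 and 2849.8 in HET, and 2875, 3159.5 and 2987 in WT. The genotypes overlapped, and the change of 0.12 in KO against WT (SE 0.08, interval -0.05 to 0.29) did not pass (adjusted p = 0.391), nor did that of 0.14 in KO against HET (adjusted p = 0.323).

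The next probe set of Cd40, 1449473_s_at, read 2939.9, 3012 and 2977 in KO, 2274, 2537 and 2410.3 in HET, and 2351, 2642 and 2526 in WT. There every KO array lay above every HET and WT array. In the fit of all 19479 kept probe sets, where 4.06% were called higher and 8.19% in either direction in KO against WT, it rose by 0.25 (SE 0.07, interval 0.11 to 0.39, adjusted p = 0.034), and in KO against HET by 0.31 (adjusted p = 0.015). Its KO against WT call was lost in 8 of 19 settings, among them median centring (0.13, adjusted p = 0.249). Of the 9 fits that left out 1 array, 4 kept the call. It was lost without WT replicate 1 or 3 and without KO replicate 1, 2 or 3. The dimmest, 1460415_a_at, read 895, 932 and 903 in KO, 890.4, 928 and 786 in HET, and 733, 936 and 986 in WT, with a change of 0.05 (interval -0.19 to 0.29, adjusted p = 0.843). All 3 intervals overlap, and whether the probe sets differ from each other was not tested. Over the 8 kept probe sets of the family, 4 were called, all higher in KO, 1 each of Tnfrsf13b, Fas, Tnfrsf1b and Cd40.

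Cd27, the receptor for CD70, stayed under the median of each of the 9 arrays, with 18.4, 9.64 and 3.49 in KO, 12.2, 7.01 and 14.2 in HET, and 12.5, 18.7 and 15.6 in WT. In people CD27 marks memory and GC B cells, whereas its 1 probe set here gave a signal under the array median on every array. Tnfrsf14, which encodes HVEM, the partner of the inhibitory receptor BTLA, reached the array median on 1 of 9 arrays, WT replicate 2. It read 44.2, 27.5 and 27.6 in KO, 24.3, 27.9 and 34.2 in HET, and 30.8, 43.8 and 40.0 in WT. Neither gene was tested, and for neither did the genotypes separate.

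**Figure D2:**
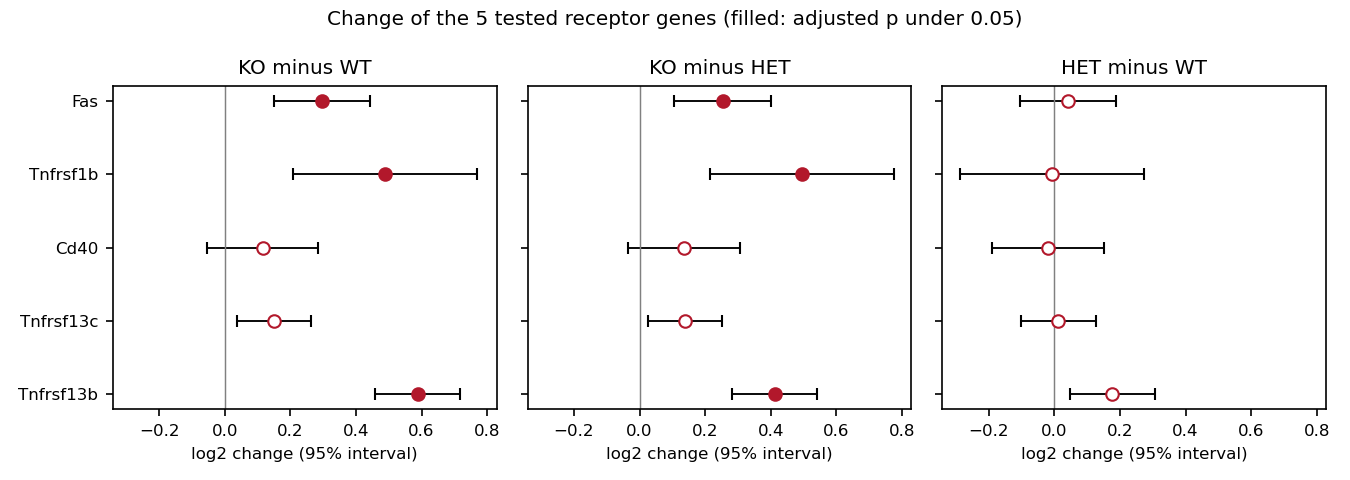
Log2 change (horizontal axis) of the 5 tested receptor genes with its 95% interval from limma, for KO minus WT, KO minus HET and HET minus WT; filled points passed an adjusted p under 0.05. Tnfrsf13b, Fas and Tnfrsf1b are filled in both panels with KO, and 0 points are filled in HET minus WT.

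The genes of 6 related lists, written with earlier results of these data known, were read in the same fit to set the receptors beside their ligands and signaling parts. Of 11 ligands and partners 8 were tested in KO against WT: Tnf and Lta rose, Ltb fell and 5 did not pass, with a median change of 0.08. Over all genes 11.9% were called in either direction. In RefSeq the 3 called ligand genes are neighbours on chromosome 17, in the order Ltb, Tnf, Lta among protein-coding genes. Tnf, the ligand of TNFR1 and TNFR2, read 583, 581 and 571 in KO, 327, 261 and 457 in HET, and 355, 294 and 364 in WT, and rose by 0.78 (SE 0.17, adjusted p = 0.0104). Leaving out WT replicate 2 took the adjusted p of Tnf to 0.0521. Lta, which encodes lymphotoxin alpha, a ligand of the same receptors, read 3157, 2496 and 3075 in KO, 2087, 1928 and 2179 in HET, and 2095, 2144 and 1522 in WT, and rose by 0.61 (SE 0.12, adjusted p = 0.00712). Ltb, whose product joins lymphotoxin alpha in a membrane complex that binds the lymphotoxin beta receptor, read 637, 669 and 714 in KO, 1091, 1001 and 971 in HET, and 1032, 1088 and 972 in WT, and fell by 0.61 (SE 0.08, adjusted p = 5.16e-04). The direction of all 3 was the same with quantile normalization and with median centring. In KO against HET, Tnf (0.77, adjusted p = 0.0151) and Lta (0.49, adjusted p = 0.029) rose, and Ltb (-0.60, adjusted p = 7.40e-04) and Btla (-0.29, adjusted p = 0.0466) fell.

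Of 19 other receptors of the family 18 had a probe set and 6 were tested. In KO against WT 1 of them was called and 5 did not pass, where 11.9% of all genes were called in either direction. Ngfr, which encodes the p75 neurotrophin receptor, known on neurons and on follicular dendritic cells, rose by 1.62 (SE 0.21, adjusted p = 2.91e-04). The Ngfr signal was 304, 239 and 315 in KO, 118, 161 and 92.8 in HET, and 85.3, 89.1 and 99.8 in WT. The KO arrays stood above both with no overlap, and Ngfr rose by 1.22 in KO against HET (adjusted p = 0.00294). The summed signal of the stromal markers Pecam1, Cxcl13 and Col1a1 was 259 to 319 in KO, 236 to 265 in HET and 213 to 299 in WT, with Col1a1 under the median of each array and Cxcl13 under it on 7 of 9; the part of stromal cells in the Ngfr result was not tested.

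Of 25 adaptors and brakes 23 were tested: Tnip1 rose, Tifa and Otulin fell, and 20 did not pass, among them Traf1, Traf2, Traf4, Traf5 and Traf6. These 3 calls of 23 stand beside 11.9% of all genes called in either direction. Tifa encodes an adaptor that binds TRAF6. It read 50.9, 91.8 and 64.0 in KO, 102, 177 and 124 in HET, and 307, 325 and 299 in WT, and fell by 2.18 in KO against WT (SE 0.24, adjusted p = 7.96e-05) and by 0.94 in KO against HET (adjusted p = 0.0263). All HET arrays lay between those of KO and WT, and the HET against WT change of -1.23 (interval -1.75 to -0.72) did not pass (adjusted p = 0.278). Tnip1, which encodes the A20-binding brake ABIN1, read 2589.6, 2290.0 and 2272 in KO, 1608, 1768 and 1784 in HET, and 1565, 1767 and 1472 in WT, and rose by 0.58 (SE 0.08, adjusted p = 7.49e-04). Otulin, which encodes an enzyme that removes linear ubiquitin chains, fell by 0.35 (SE 0.08, adjusted p = 0.0113; 0.0585 without WT replicate 3). In KO against HET, Tnip1 (0.47, adjusted p = 0.00413) and Birc2, a ubiquitin ligase of the TRAF complexes (0.22, adjusted p = 0.0441), rose, while Tifa and Otulin (-0.39, adjusted p = 0.00892) fell.

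**Figure D3:**
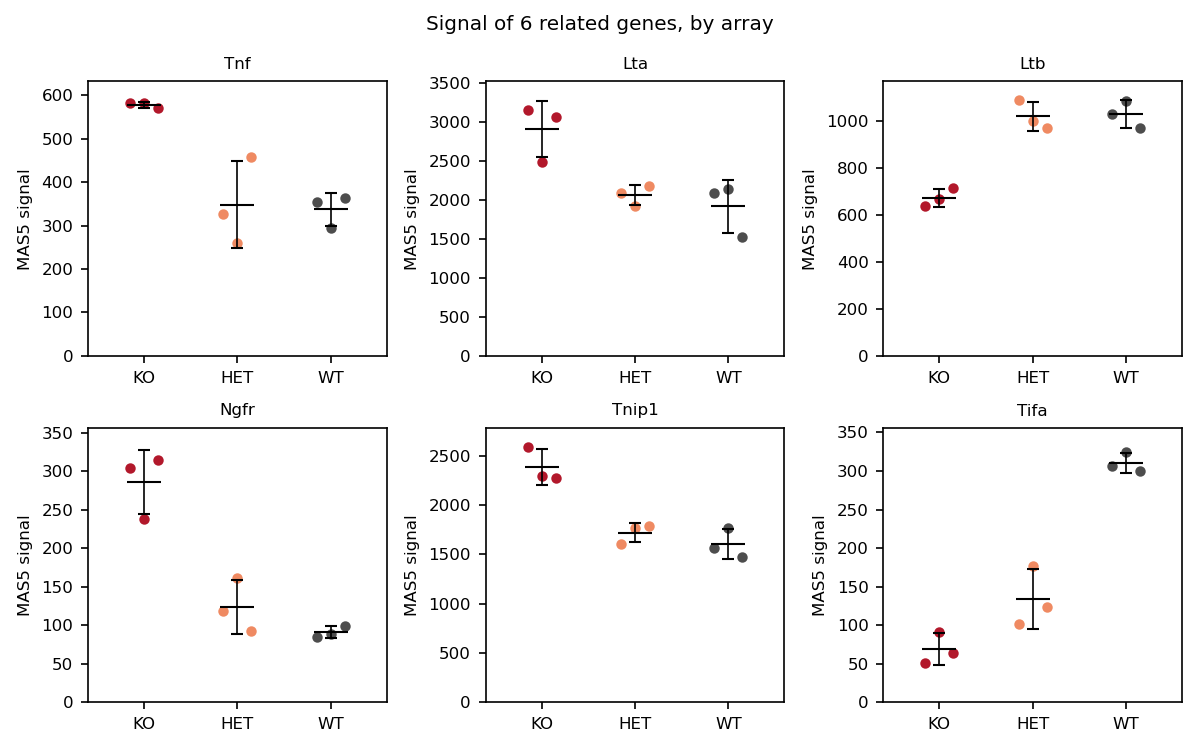
MAS5 signal (vertical axis, linear, from 0) of 6 genes picked from the related genes that the rule names. Points are arrays, the bar the mean and the whisker the SD of 3 arrays, with KO, HET and WT from left to right. Tnf, Lta, Ngfr and Tnip1 are higher and Ltb and Tifa lower on all KO arrays than on any HET or WT array, and the HET points of Tifa lie between those of KO and WT.

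Of the 11 genes of extrinsic death, the pathway below CD95, 9 were tested in KO against WT. Cflar and Bid rose, Daxx fell and 6 did not pass, among them Fadd (-0.07, adjusted p = 0.796) and Casp8 (0.03, adjusted p = 0.843). Over all genes 11.9% were called in either direction. Cflar encodes c-FLIP, which blocks caspase-8 at the receptor, and rose by 0.33 (SE 0.08, adjusted p = 0.0203). Its 5 probe sets gave changes of 0.17 to 0.42. Median centring and leaving out WT replicate 3 or KO replicate 2 ended the call (adjusted p up to 0.0937). Bid, which carries the death signal to mitochondria, rose by 0.24 (SE 0.05, adjusted p = 0.0101), a call lost with median centring, with its 3 probe sets averaged (changes 0.15 to 0.39) and without the variance trend (adjusted p up to 0.169, change down to 0.12). Daxx, whose product was first described as a partner of CD95, fell by 0.34 (SE 0.10, adjusted p = 0.04), a call lost in 9 of 21 settings, 6 of them fits without 1 array, namely replicate 2 or replicate 3 of any genotype (adjusted p up to 0.145). In KO against HET, Bid rose (0.31, adjusted p = 0.00235), though its 3 probe sets gave changes of -0.05 to 0.46. Cflar (0.26, adjusted p = 0.0669) and Daxx (-0.24, adjusted p = 0.149) did not pass there.

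Of 12 NF-kB subunits, inhibitors and kinases 10 were tested and limma called 0, with 1, Ikbkb (0.14, interval 0.0033 to 0.27, adjusted p = 0.183), at an unadjusted p under 0.05, beside 11.9% of all genes called and 25.7% with such a p. Their median change was -0.01. The NF-kB inhibitor gene Nfkbia had a change of -0.10 (interval -0.21 to 0.02) and Relb, a subunit of the pathway that BAFF-R and CD40 use, one of 0.25 (interval -0.03 to 0.52). Of 25 genes known to respond to CD40, 21 were tested, 3 rose (Irf4, Cd86 and Fas itself), 2 fell (Batf and Pim1) and 16 did not pass. Their median was -0.02, and the same 11.9% of all genes stands beside these calls. Irf4, which encodes a factor of plasma cell entry, and is also on the plasma cell marker list, rose by 0.61 (SE 0.08, adjusted p = 4.73e-04) and Cd86, the ligand of CD28, by 0.41 (SE 0.07, adjusted p = 0.00186), while Batf fell by 1.32 (SE 0.20, adjusted p = 0.00115) and the kinase gene Pim1 by 0.35 (SE 0.07, adjusted p = 0.004). Icam1 (0.00088, adjusted p = 0.996), Traf1 (-0.02, adjusted p = 0.925) and Tnfaip3 (0.02, adjusted p = 0.929), 3 other genes of that list, did not pass. In KO against HET, limma called 0 of the 10 NF-kB genes, with 0 at an unadjusted p under 0.05. Of the 21 CD40 response genes 4 rose (Irf4, Cd86, Fas and Bhlhe40, the last by 0.95, adjusted p = 0.0143). Another 2 fell, Batf (-0.87, adjusted p = 0.0192) and Pim1 (-0.34, adjusted p = 0.00739). Over all genes limma called 8.99% in KO against HET, and 23.2% had an unadjusted p under 0.05. Between HET and WT limma called 0 genes of the 6 lists, with Tifa and Batf (-0.45, adjusted p = 0.998) at an unadjusted p under 0.05. Of all genes tested, 0.00968% were called in that comparison and 4.18% had such a p.

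**Figure D4:**
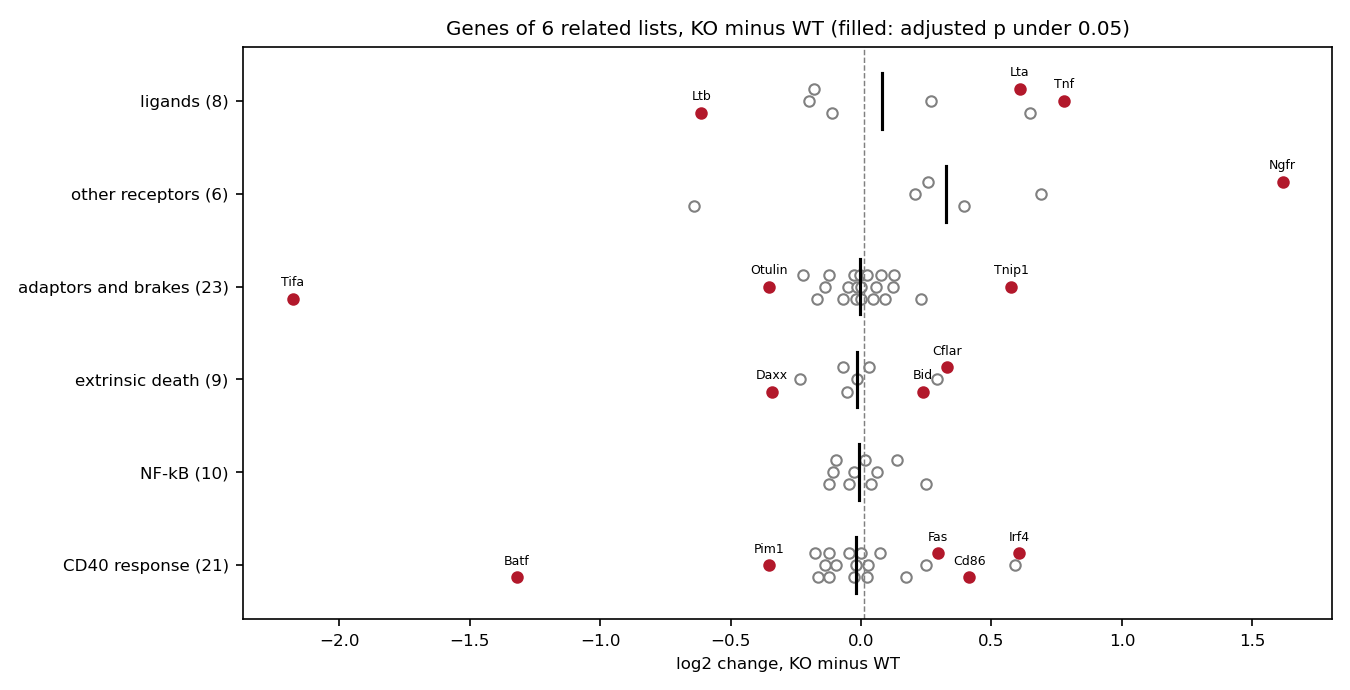
Log2 change of KO minus WT (horizontal axis) for each tested gene of 6 related lists, with the number tested in brackets; filled and named points passed an adjusted p under 0.05, black bars are list medians and the dashed line is the median of all genes tested (0.01). The NF-kB row has 0 filled points, and Tifa, Batf and Ngfr lie farthest from 0.

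Likeness was judged by the smallest root mean square difference between centred log2 profiles over the 9 arrays, and unnamed gene models were left out. The genes most like Tnfrsf13b were Cyth4 (0.06) and Nedd4 (0.07), beside a median of 0.29 over all genes. Those most like Fas were Fam117b (0.04) and Gga3 (0.05; median 0.21), and those most like Tnfrsf1b were Sh3pxd2a (0.08) and Gpr137b (0.10; median 0.30). These genes were picked for their closeness to called receptors on the same arrays, so their own changes follow from that choice. Nedd4, which encodes a ubiquitin ligase, rose by 0.57 in KO against WT (SE 0.08, adjusted p = 7.31e-04). Cyth4, which encodes a guanine nucleotide exchange factor for ARF proteins, rose by 0.55 (SE 0.10, adjusted p = 0.00354). Their HET against WT changes were 0.10 and 0.14, beside 0.18 for Tnfrsf13b. The call of Gpr137b was lost without shared-suffix probe sets (0.08, adjusted p = 0.789) and with its probe sets averaged, that of Gga3 with median centring and without WT replicate 1, WT replicate 2 or KO replicate 3 (adjusted p up to 0.144).

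**Figure D5:**
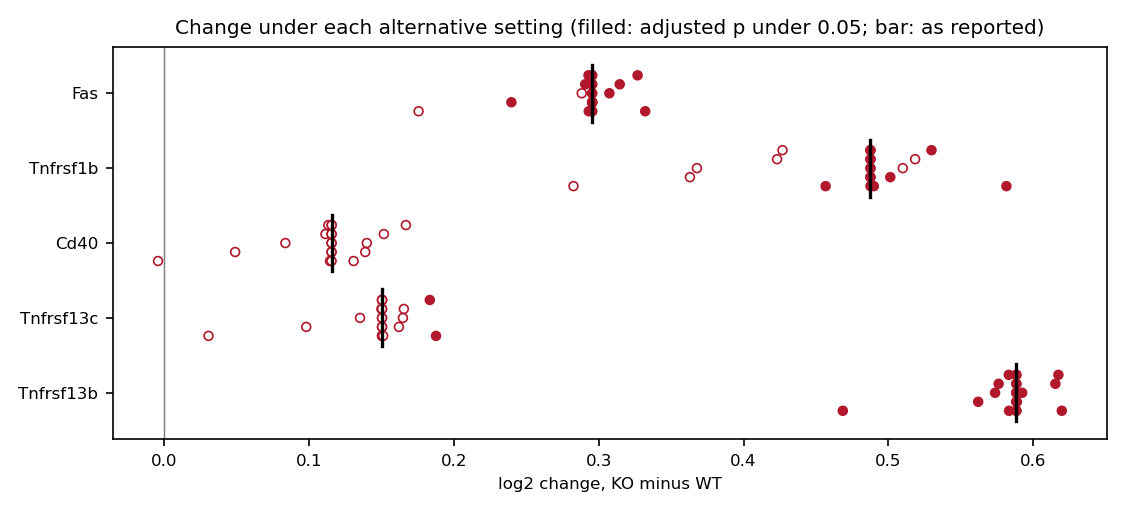
Log2 change of KO minus WT (horizontal axis) of the 5 tested receptor genes under each alternative setting (up to 21 a gene); filled points passed an adjusted p under 0.05 and black bars are the values as reported. All 21 points of Tnfrsf13b are filled, 19 of Fas, 14 of Tnfrsf1b, 2 of Tnfrsf13c and 0 of Cd40.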

How the data were processed

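Transcripts were measured on 9 Affymetrix Mouse 430.2 arrays. The authors deposited an intensity for every probe set, linear by its values and made with MAS5 per the submitters' processing notes; version and annotation build are not given in the sources used here. The trimmed mean was 500.002 on each array, which MAS5 scaling sets. The precision is limited by the number of arrays, and no detection calls were used.

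The platform annotation named 34945 probe sets by 1 symbol. Probe sets at or above the array median on 3 or more arrays were kept (19479), and the brightest kept one stood for each gene (10331). The model was limma 3.58.1 in R 4.3.3 (lmFit, eBayes with trend) on log2(signal + 2.09), two-sided, with Benjamini-Hochberg adjustment over all genes. A second fit took every kept probe set as a row. Groups came from the genotype labels, and titles share no numbers, so arrays were not paired. Alternatives were the offset, normalization, filter, probe set choice, variance moderation, array weights, the groups fitted and leaving out each array.

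The members and lists were chosen with earlier results of these data known. Named are all 9 members, up to 4 called genes of each list by smallest adjusted p, and the 2 genes most like each called member. Unnamed gene models were left out of the search for the genes most like a member. Other genes were named after their values were seen. Marker lists of dendritic, NK, and erythroid and platelet cells had 2, 0 and 0 tested genes in KO against WT, with 0 called. Listed genes that no single-symbol probe set names were not used here.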

Additional observations from a re-analysis of the deposited data

How the results depend on the processing

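No paired analysis was possible because the titles give no 2 genotypes the same number. With each array centred on its median, 1 of 5 receptors was called in KO against WT and 1 in KO against HET, and 1 of 8 probe sets. Without the filter 1 was called in KO against HET and 2 probe sets in KO against WT; with eBayes without trend, 1 and 1. Leaving out 1 array gave 2 to 3 receptors in KO against WT, 1 to 3 in KO against HET, 0 to 0 in HET against WT and 0 to 0 for the departure of HET from the midpoint, and 1 to 4 probe sets. The KO against HET count was 1 without KO replicate 2 and 1 without HET replicate 2. The probe set count was 1 without WT replicate 1, 2 without KO replicate 1, 2 without KO replicate 2 and 1 without KO replicate 3. In HET against WT every setting called 0 of 5.

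Some changes near 0, called nowhere, changed sign. With median centring the Cd40 change in KO against WT was -0.0044, that of its dimmest probe set -0.069, that of the dim Tnfrsf1b probe set -0.042 and that of Tnfrsf13c in HET against WT -0.010, and quantile normalization gave the dim Tnfrsf1b probe set -0.026. Leaving out 1 array spread the dim Tnfrsf1b probe set over -0.21 to 0.47 and the dimmest Cd40 probe set over -0.078 to 0.13 in KO against WT. In HET against WT it spread Fas over -0.015 to 0.089, Tnfrsf1b over -0.13 to 0.087, Cd40 over -0.091 to 0.023 and Tnfrsf13c over -0.040 to 0.050. Array weights gave Tnfrsf1b 0.0023 in HET against WT, and the mean of its probe sets 0.25. The cause of these shifts was not tested. In KO against WT and in KO against HET, no alternative run turned the sign of Tnfrsf13b, Fas or Tnfrsf1b. Dim genes limit what could be read: 4 of the 9 receptors were too dim to test, and a change that did not pass may still be present within its interval.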
